A study of Mus musculus with 2 samples.

Results

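The clustered replication-dependent histone genes were examined for R-loop peaks in mouse neural stem/progenitor cells (NSPCs). The members were all protein-coding genes of the GENCODE M1 annotation (NCBI37/mm9 build) whose symbol starts with Hist1h, Hist2h, Hist3h or Hist4h, 67 of 22367 protein-coding genes. A member was counted as having a peak when a peak overlapped the gene or its 2 kb flanks by at least 1 bp. The NSPCs were primary cultures from the frontal brain of C57BL/6 mice at postnatal day 7, grown with 0.5 μM aphidicolin for 48 h, which slows replication. This treatment is stated in the published methods and not in the sample labels. RNA:DNA hybrids were recovered with the S9.6 antibody by DNA:RNA immunoprecipitation and sequencing (DRIP-seq) from DNA cut with restriction enzymes. The deposited result is 1 list of 22132 peaks, which holds positions only. It has no signal, no read depth and no replicates, so the values below carry no replicate error, no test was possible, and the depth behind each peak is unknown. No untreated NSPCs were among the samples, and the input library was not analysed here.

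Replication-dependent histone genes supply the bulk of the histones that package new DNA in S phase. Their short genes have no introns in the coding sequence as a rule, and their mRNAs end in a conserved stem-loop bound by SLBP in place of a poly(A) tail. H2A, H2B, H3 and H4 form the nucleosome core, and H1 is the linker histone that binds the DNA between nucleosomes through a long lysine-rich tail. In R-loops, the RNA pairs with the template strand, and a purine-rich or G-rich RNA makes a more stable hybrid with DNA.

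By type, the members were 6 H1, 19 H2A, 18 H2B, 11 H3 and 13 H4 genes, which makes 61 core histone genes. By cluster, 55 belonged to Hist1 on chromosome 13, 9 to Hist2 on chromosome 3, 2 to Hist3 on chromosome 11 and 1 to Hist4 on chromosome 6. Hist1 was divided into runs wherever neighbouring members lay more than 100 kb apart. The first run held 18 members over 122 kb (chr13:21807632-21929399), the second 5 members over 8.56 kb (chr13:22126982-22135545) and the third 29 members over 233 kb (chr13:23622919-23856283). The testis genes Hist1h2ba and Hist1h2aa made up the fourth run, and Hist1h2al stood alone in the fifth. Hist2 spanned 59.1 kb (chr3:96023839-96082924). The symbol rule left out 3 pseudogenes, none of which had a peak within 2 kb.

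R-loop peaks were found at few histone genes, and the peaks that reached a coding sequence were all at H1 genes. A peak lay within 2 kb of 9 of the 67 members (13.4%), compared to 43.1% of all protein-coding genes. These were Hist1h1c, Hist1h1d and Hist1h1e (H1), Hist1h2ac, Hist2h2aa1 and Hist3h2a (H2A), Hist1h2bc and Hist1h2be (H2B), and Hist2h3c1 (H3). They were reached by 6 distinct peaks, since 3 of the peaks served a pair of members each. No peak was found within 2 kb of any of the 13 H4 genes. All of these except Hist2h4 are under 1 kb long, and 5.90% of all protein-coding genes of at most 1 kb had such a peak. In so small a group, finding none is near that share.

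Histone genes are short, and shares were therefore also set beside those of genes of like length. The longest member model measured 37.4 kb, and 36.5% of the protein-coding genes up to that length had a peak within 2 kb. However, 51 members were at most 1 kb long, and 2 of these (3.92%) had a peak within 2 kb, near the 5.90% of all protein-coding genes of at most 1 kb. Thus, the low share among the short members was close to that of other short genes. The remaining members with a peak, 7 of 9, were among the fewer members with gene models over 1 kb. The share with a peak among these longer members was above the 13.4% of all members and close to the 43.1% of all protein-coding genes. The latter include the genes of at most 1 kb, and the share over longer protein-coding genes alone was not computed. The 13.4% therefore mainly describes the short members.

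The start site and the coding sequence gave a narrower count. The transcription start site (TSS) lay inside a peak in 3 members (4.48%), with 14.9% among all protein-coding genes. Among genes of at most 1 kb, this held for 1 of 51 members (1.96%) and for 2.95% of all protein-coding genes. A coding base lay inside a peak in the same 3 members (4.48%), with 26.8% among all protein-coding genes and 5.90% among the 3138 genes whose coding sequence lies in 1 exon and measures at most 1 kb. All 3 were H1 genes, so that 3 of 6 H1 genes and 0 of 61 core histone genes had a coding base in a peak. Hist1h1e was the 1 member that lay wholly inside a peak (1.49%), with 1.81% among all protein-coding genes. Among genes of at most 1 kb, the shares were 1.96% of members and 2.32% of all protein-coding genes. A peak overlapped the limits of 4 members, these 3 H1 genes and Hist1h2bc, where 39.6% of all protein-coding genes had one.

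**Figure D1:**
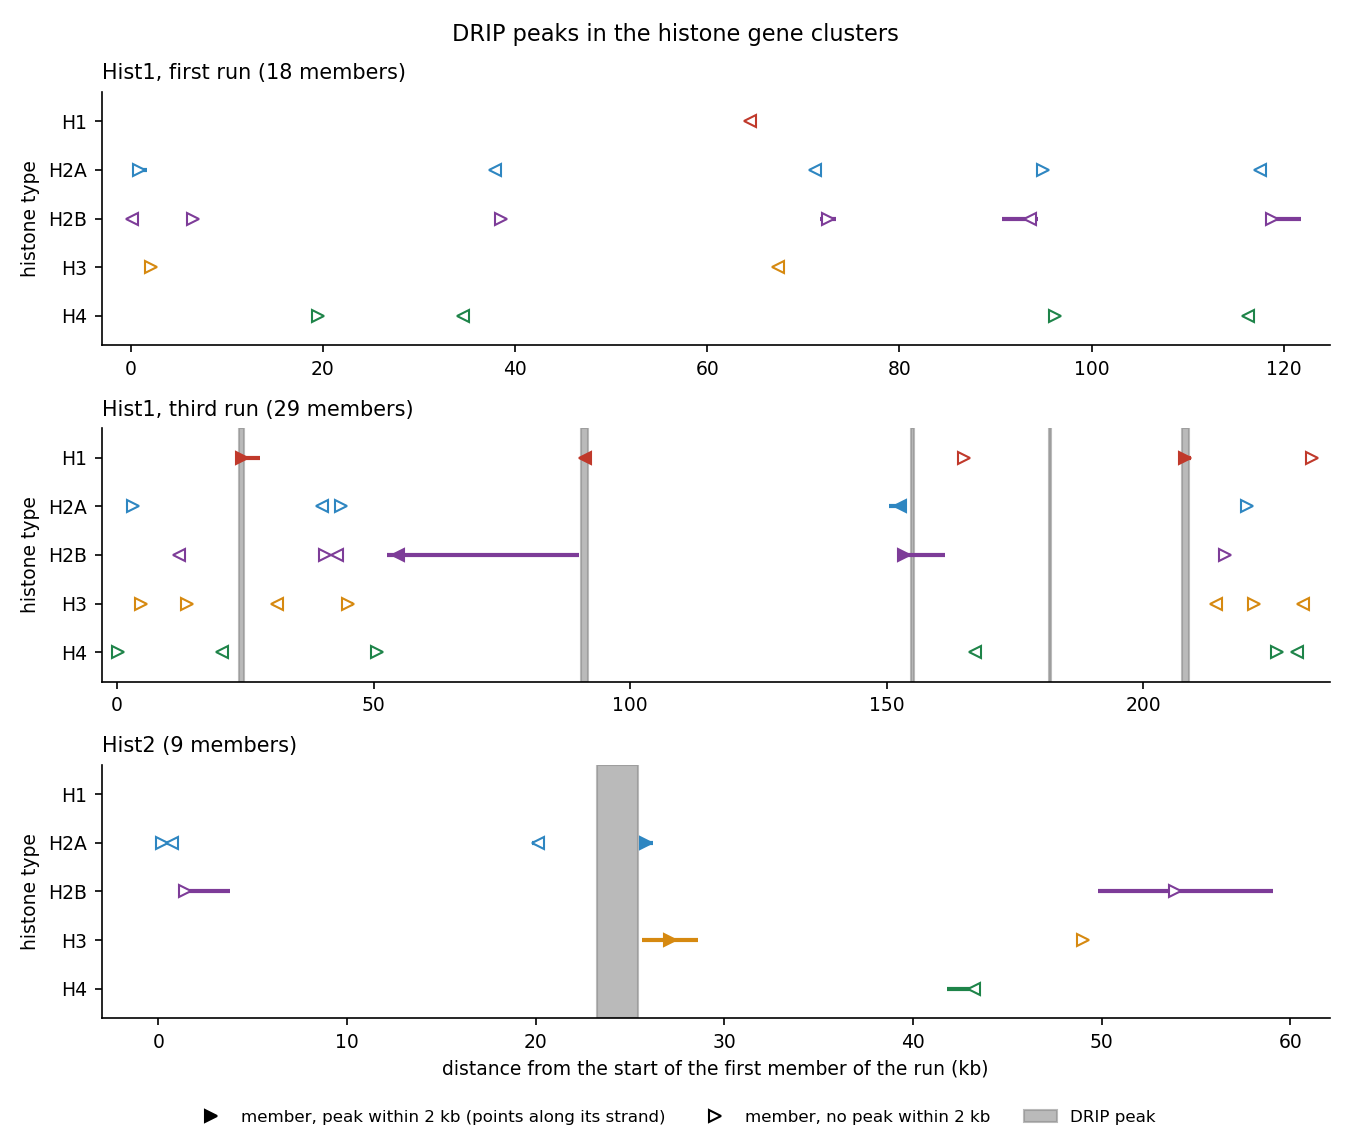
Members of 3 runs of histone genes by type (rows) against the distance in kb from the start of the first member of each run. Lines are gene limits, triangles sit on the coding sequence and point along the strand, filled triangles are members with a peak within 2 kb, and grey bands are peaks. The first run of Hist1 has no peak, the third has 5, and Hist2 has 1.

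The H1 genes are described first. Hist1h1c, Hist1h1d and Hist1h1e encode the somatic linker histones H1.2, H1.3 and H1.4. Each of these genes had its own peak, which began upstream of the TSS and extended past the stop codon. The Hist1h1c peak (chr13:23830492-23831805, 1314 bp) ran from position -184 to 1129 relative to the TSS. It covered the whole coding sequence and 72.4% of the gene. The Hist1h1d peak (chr13:23646756-23647628, 873 bp) ran from position -145 to 727. It covered the whole coding sequence but only 19.1% of the gene, because the annotated 3′ end lies far beyond the stop codon in a gene model of 3.82 kb. The Hist1h1e peak (chr13:23713361-23714716, 1356 bp) ran from position -345 to 1010 and covered the 0.748 kb gene entirely. These 3 peaks were GC-rich, at 59.2%, 59.2% and 55.8% GC.

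The other 3 H1 genes had no peak within 2 kb. Hist1h1a encodes H1.1 and ended the third run at 23.7 kb from the nearest peak. Hist1h1b encodes H1.5, lies in the first run, and its nearest peak was 266 kb away. Hist1h1t, the testis H1 gene, stood 9.51 kb from the nearest peak, in the same run as the 3 H1 genes with peaks. Distance along the run did not separate the H1 genes, since Hist1h1t lies between Hist1h1e and Hist1h1c.

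**Figure D2:**
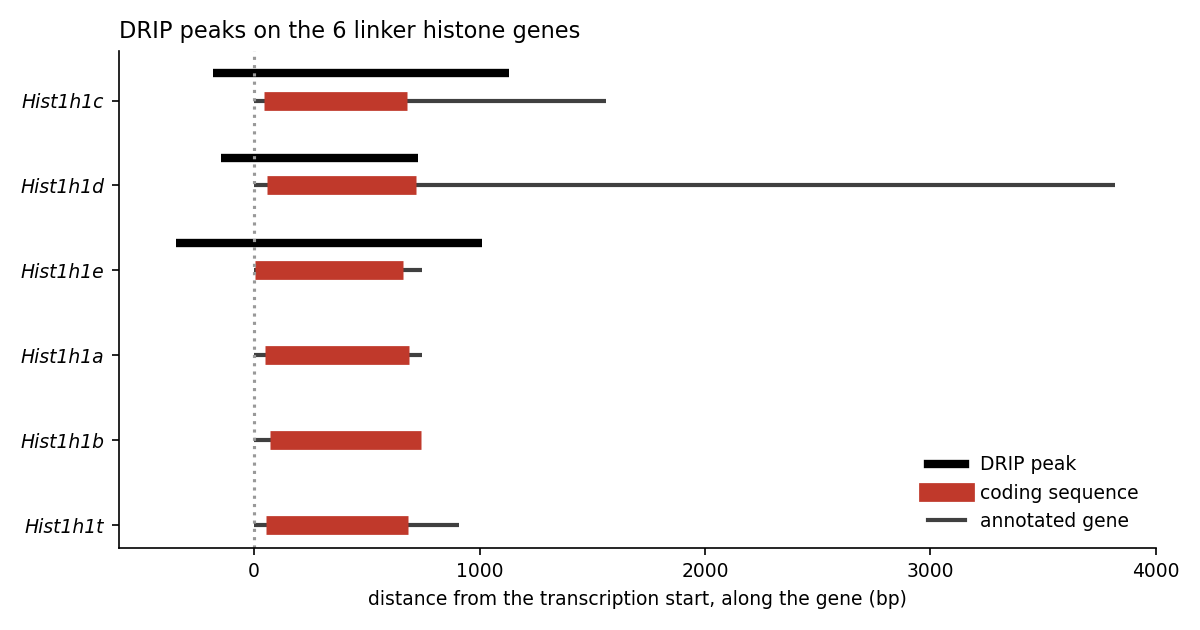
The 6 H1 genes aligned on the TSS (position 0, in bp along the gene), with the coding sequence as a thick red bar, the annotated gene as a thin line and the peak as a black bar above it. Peaks at Hist1h1c, Hist1h1d and Hist1h1e start at -184, -145 and -345 and cover the coding sequence, whereas Hist1h1a, Hist1h1b and Hist1h1t have none.

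The 3 H1 promoters inside peaks are shown because each peak began upstream of this region and ran through it. Each line gives the 100 bases before the TSS, 5′ to 3′ on the coding strand (mm9), all of them inside the peak, with CCAAT (read on either strand) and TATAAA in capitals. Hist1h1d is on the plus strand at chr13:23646801-23646900, Hist1h1e on the minus strand at chr13:23714372-23714471, and Hist1h1c on the plus strand at chr13:23830576-23830675.
Hist1h1d: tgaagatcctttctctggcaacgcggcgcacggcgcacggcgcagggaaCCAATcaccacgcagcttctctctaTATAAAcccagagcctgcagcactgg
Hist1h1e: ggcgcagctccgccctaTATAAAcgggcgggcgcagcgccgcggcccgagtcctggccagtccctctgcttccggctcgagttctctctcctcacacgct
Hist1h1c: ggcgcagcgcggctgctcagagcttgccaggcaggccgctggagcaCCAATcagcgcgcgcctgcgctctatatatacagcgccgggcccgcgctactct

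Both motifs were common upstream of the histone genes, with or without a peak. Within 150 bases before the TSS, CCAAT on either strand was found in 56 of 67 members (83.6%) and in 26.1% of all protein-coding genes. TATAAA was found there in 27 members (40.3%) and in 7.88% of all protein-coding genes. All 6 H1 genes held CCAAT and 4 held TATAAA, so neither set apart the 3 H1 genes with peaks. A match is a description of the letters and not of a factor's binding.

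The lysine-rich tail is shown because the lysine codons, AAA and AAG, consist of purines only. For 5 of the 6 H1 genes, each line gives the 75 bases in frame with the most A and G in the coding sequence, 5′ to 3′ on the coding strand (mm9), with lysine codons in capitals. The windows lie at chr13:23831159-23831233 (Hist1h1c, plus), chr13:23647310-23647384 (Hist1h1d, plus), chr13:23856075-23856149 (Hist1h1a, plus), chr13:21871941-21872015 (Hist1h1b, minus) and chr13:23788221-23788295 (Hist1h1t, plus).
Hist1h1c, in a peak: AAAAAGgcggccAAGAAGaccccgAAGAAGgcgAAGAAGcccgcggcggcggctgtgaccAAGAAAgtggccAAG
Hist1h1d, in a peak: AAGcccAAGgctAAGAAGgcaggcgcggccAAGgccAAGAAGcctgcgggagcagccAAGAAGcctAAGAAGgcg
Hist1h1a, no peak: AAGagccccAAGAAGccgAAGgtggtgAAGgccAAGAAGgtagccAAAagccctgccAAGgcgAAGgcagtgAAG
Hist1h1b, no peak: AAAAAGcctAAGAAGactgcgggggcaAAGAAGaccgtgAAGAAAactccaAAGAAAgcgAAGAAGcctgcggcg
Hist1h1t, no peak: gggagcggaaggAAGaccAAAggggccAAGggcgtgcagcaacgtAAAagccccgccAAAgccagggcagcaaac

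These 5 windows held 69.3 to 73.3% purines. With 1 of the 3 H1 genes with a peak missing from this set, the windows were not compared by peak. Lysine codons numbered 11 of 25 in Hist1h1c, Hist1h1d and Hist1h1a, 12 of 25 in Hist1h1b and 5 of 25 in Hist1h1t. Over the whole coding sequence, the median purine content was 59.0% in H1 genes, 53.1% in H2A, 54.0% in H2B, 49.8% in H3 and 53.7% in H4. The lowest H1 value, 57.4% in Hist1h1t, was above the highest core histone value of 56.7%, and the median over all protein-coding genes was 51.7%. H1 genes thus stood apart from core histone genes in purine content, but the purine content of H1 genes with a peak (58.8 to 60.6%) overlapped that of H1 genes without one (57.4 to 59.3%).

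Coding GC, but not GC over the whole gene, separated the H1 genes with a peak from those without. Coding GC was 63.7% in Hist1h1c, 62.6% in Hist1h1d and 61.8% in Hist1h1e, and 57.4% in Hist1h1b, 56.6% in Hist1h1t and 56.7% in Hist1h1a (3 genes in each group, so a description alone). Over the gene limits the groups overlapped, at 42.3 to 59.9% with a peak and 51.8 to 55.6% without. With the 2 kb flanks they also overlapped, at 39.4 to 43.9% with a peak and 42.1 to 45.4% without. The core genes were richer in GC than the H1 genes as a whole, with medians of 69.2% in H2A, 62.7% in H2B, 67.4% in H3 and 65.7% in H4, against 59.6% in H1 and 51.8% over all protein-coding genes. GC skew, (G − C)/(G + C) counted on the coding strand, had a median of 0.0389 in H1 coding sequences, 0.00980 in H4, -0.0258 in H2A, -0.0464 in H2B and -0.0764 in H3. Over all protein-coding genes, the median was 0.00551. Hist1h1e had a skew of -0.00985, the lowest of the H1 genes, and lay wholly in a peak, so a positive skew was not shared by the H1 genes with peaks.

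The 3 H1 genes with peaks were also the most alike in sequence. Coding identity was 84.0% between Hist1h1d and Hist1h1e, 83.7% between Hist1h1d and Hist1h1c, and 81.2% between Hist1h1e and Hist1h1c. Identity in the other 12 pairs of H1 genes was lower, and the closest of them, Hist1h1b with Hist1h1d, reached 79.1%. Hist1h1t was the most distant, with 62.9% identity to Hist1h1e.

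The remaining peaks in Hist1 lay outside coding sequences. Hist1h2ac and Hist1h2bc, an H2A and an H2B gene whose start sites lie 251 bp apart and point away from each other, shared a peak of 571 bp (chr13:23777600-23778170). It lay inside Hist1h2bc, 1532 to 2102 bp downstream of its TSS and 1.12 kb from its coding sequence, and covered 6.89% of the 8.29 kb gene model. Hist1h2ac was 1.78 kb from this peak, the farthest member inside the 2 kb limit. The peak was poor in GC (40.1%) with a plus-strand skew of 0.249.

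Hist1h2be, an H2B gene, was counted through the Hist1h1e peak, which lay 0.367 kb beyond the 5′ limit of its 37.4 kb gene model. Its coding sequence was 29.8 kb from any peak, and the gene model of Hist1h2be rather than the coding sequence therefore gave this count. The fifth peak of the third run (chr13:23804640-23805042, 403 bp, plus-strand skew -0.725) was near Hfe, an iron regulator gene embedded in the cluster, and within 2 kb of no member. Peaks covered 1.94% of the third run.

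In Hist2, 1 peak of 2201 bp (chr3:96047069-96049269) served Hist2h2aa1, an H2A gene 0.191 kb away, and Hist2h3c1, an H3 gene 0.207 kb away. The gene model of Hist2h3c1 begins within that of Hist2h2aa1, and its coding sequence was 1.40 kb from the peak. This peak covered 3.73% of the Hist2 span, overlapped no annotated gene and had 44.1% GC. It lay between Hist2h2aa2 and Hist2h2aa1, inverted copies with identical coding sequences of 390 bases. Hist2h2aa2 was 2.85 kb from the peak and so fell outside the limit. The other Hist2 members were 16.4 to 24.4 kb from a peak, the nearest being Hist2h4 and the farthest Hist2h2bb.

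In Hist3, the peak counted for Hist3h2a (chr11:58770862-58774336, 3475 bp) lay 0.685 kb beyond the 3′ end of the gene and overlapped Trim17, a ubiquitin ligase gene next to the cluster. The coding sequence of Hist3h2a was 2.23 kb from this peak. Its neighbour Hist3h2ba, an H2B gene, was 7.83 kb away. Hist4h4, the single gene of Hist4, was 2.49 kb from a 4269 bp peak (chr6:136755388-136759656) that covered H2afj, a replication-independent H2A variant gene. It was the member nearest to a peak among those outside the limit, followed by Hist2h2aa2 at 2.85 kb and Hist1h4f at 3.24 kb.

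Stretches rich in G are shown for the 3 peaks outside coding sequences. They were picked by another measure than the purine windows above. Each line gives the 60 bases in which G most outnumbers C, among windows that avoid annotated untranslated regions. The bases are read 5′ to 3′ on the strand where this holds (mm9), with runs of at least 3 G in capitals. They lie at chr13:23777816-23777875 (plus), chr3:96047379-96047438 (minus) and chr11:58773103-58773162 (minus).
Peak in Hist1h2bc: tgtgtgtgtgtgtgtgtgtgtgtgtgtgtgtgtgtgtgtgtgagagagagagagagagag
Peak between Hist2h2aa2 and Hist2h2aa1: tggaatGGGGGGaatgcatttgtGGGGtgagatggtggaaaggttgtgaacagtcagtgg
Peak past Hist3h2a: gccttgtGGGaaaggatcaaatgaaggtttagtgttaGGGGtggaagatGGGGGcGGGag

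The stretch in Hist1h2bc is a simple TG and AG repeat with 30 G and 0 C. This peak alone gave the counts of Hist1h2ac and Hist1h2bc, and how surely reads can be placed within it was not examined. The other stretches held 28 G with 3 C and 28 G with 4 C and contained runs of G. They lie on the minus strand, whereas Hist2h2aa1, Hist2h3c1, Hist3h2a and Trim17 are on the plus strand. In the H1 peaks, the same search gave 24 G with 12 C (Hist1h1d), 29 G with 7 C (Hist1h1e) and 27 G with 15 C (Hist1h1c). Each stretch was the most extreme window on either strand, so some excess of G was bound to be found. Sequence outside peaks was not searched.

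Neither the first nor the second run of Hist1 held a peak. Together, these 23 members lay in a stretch of 1100 kb on chromosome 13 (chr13:21605843-22709860) in which the list had no peak. The stretch had no undetermined bases in the build and held 28 other protein-coding genes. Of the 22111 distances between neighbouring peaks, 375 (1.70%) were at least as long. Within it, the member nearest to a peak was Hist1h2bl in the first run, at 202 kb, and the farthest was Hist1h2bj in the second run, at 529 kb.

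The nearest peak was a median of 20.6 kb from a member, compared to 8.45 kb for all protein-coding genes and 133 kb for those of at most 1 kb. A distance over 200 kb was found for 23 members (34.3%), for 13.1% of all protein-coding genes and for 39.6% of those of at most 1 kb. Members therefore lay farther from peaks than protein-coding genes in general and nearer than short genes in general. By type, the median distance was 4.75 kb for H1, 18.9 kb for H3, 21.9 kb for H2B, 22.3 kb for H2A and 23.4 kb for H4. The medians of the 4 core types lay within 5 kb of each other, although the farthest member of each of these types was at least 269 kb from a peak.

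**Figure D3:**
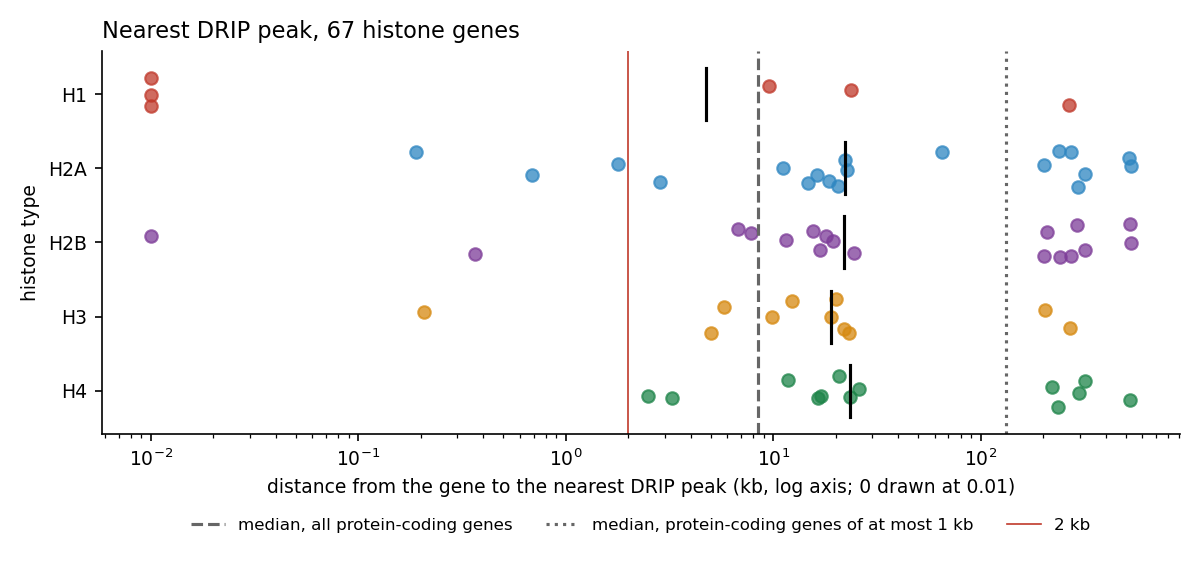
Distance from each of the 67 members to the nearest peak in kb (log axis, members overlapping a peak drawn at 0.01) by histone type, with black bars for the median of each type. Vertical lines mark the 2 kb limit, the median of all protein-coding genes (8.45 kb) and that of protein-coding genes of at most 1 kb (133 kb). The members of the first and second run form the group over 200 kb.

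The testis genes were all without a peak. Hist1h2aa (H2A) lay 16.2 kb from a peak and Hist1h2ba (H2B) 16.9 kb, beside Hist1h1t at 9.51 kb. The isolated H2A gene Hist1h2al was 65.2 kb away. Its matched RefSeq name is H2af-ps2, which has the form of a pseudogene symbol, although GENCODE M1 lists it as protein-coding.

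Shared promoters between H2A and H2B genes are a feature of these clusters. In 13 pairs, neighbouring members were transcribed away from each other from start sites at most 1 kb apart, and 12 of these were an H2A with an H2B gene. The start sites were 168 to 693 bp apart, with a median of 241 bp. No peak lay between the start sites of any pair, and the pair nearest to a peak was Hist1h2ac with Hist1h2bc, at 1.53 kb.

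Near-identical copies bear on these counts, since short reads from such copies cannot be placed with certainty, and whether multiply mapped reads entered the peak calling is not given in the sources used here. The study's signal tracks, not analysed here, rest on uniquely mapped reads. A word of 50 bases was counted as repeated when it occurred elsewhere in the build on either strand. In the coding span, the median share of repeated words was 11.0% in H1 genes, 81.8% in H2A, 77.1% in H2B, 82.5% in H3 and 71.2% in H4. The H1 genes were thus the most distinct in sequence. Among them, repeated words made up 22.0% in Hist1h1c, 26.5% in Hist1h1d and 25.5% in Hist1h1e, the 3 with peaks. Hist1h1a, Hist1h1b and Hist1h1t held none and had no peak. Of the core genes without a peak within 2 kb, Hist4h4 and Hist2h2be had no repeated word of 50 bases in the coding span. With words of 36 bases, the share in Hist2h2be was 10.8%. These are values of single genes and test nothing about repeated sequence.

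With the 2 kb flanks included, the median share of repeated words was 3.01% in H1 genes and 13.3% in core histone genes. In 48 of 67 members it was below 20%, and in 6 members it was over 50%. These 6 (Hist1h2bq, Hist1h2br, Hist1h2ao, Hist1h2ap, Hist1h4m and Hist1h4n) belong to a block that is present in inverted copies in the first run. Their coding sequences form 3 identical pairs, and none was near a peak. Over the gene limits, members with a peak within 2 kb had a median of 8.54% repeated words and those without had 49.6%, and 7 of the 9 with a peak have gene models over 1 kb. With the 2 kb flanks, the medians were 5.77% and 13.2%. In the coding span the order turned, with 81.8% in members with a peak and 72.8% in those without. The part of repeated sequence in the distribution of peaks was not tested.

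**Figure D4:**
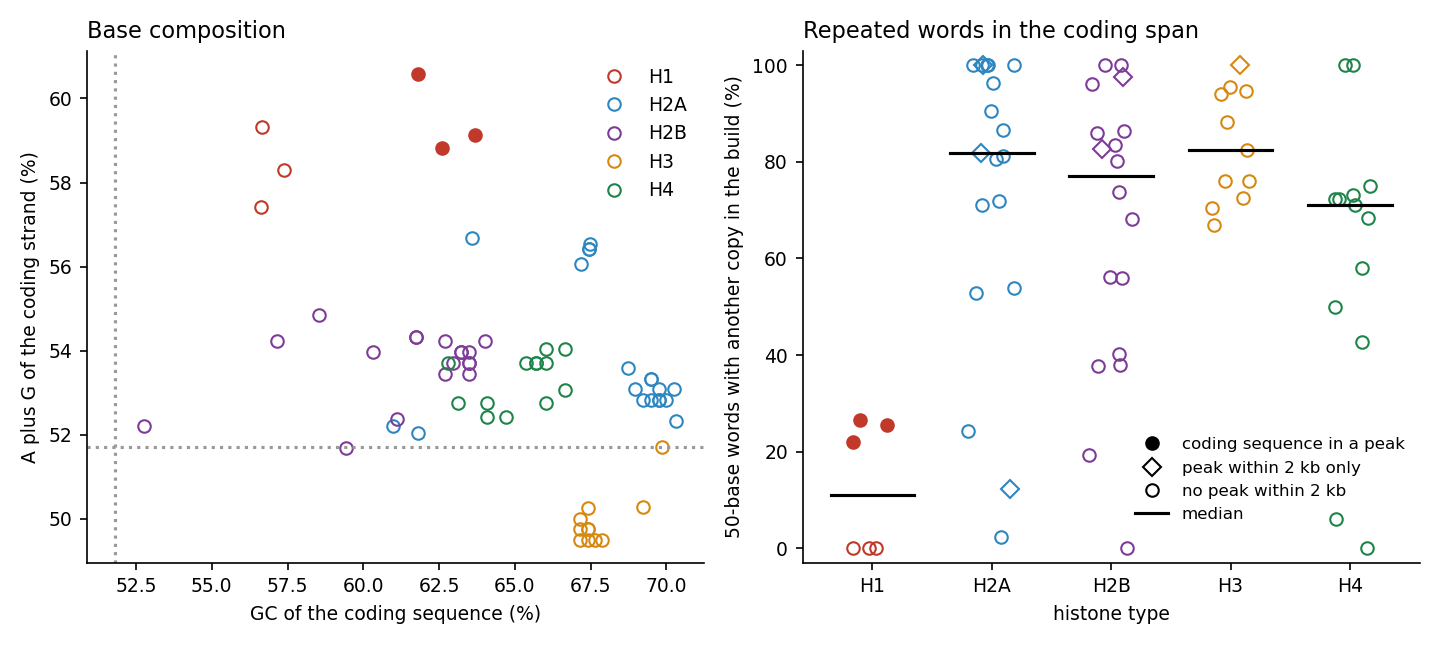
Left, GC content against purine content of the coding sequence of each member in %, with dotted lines at the medians of all protein-coding genes (51.8% and 51.7%). Right, share of repeated 50-base words in the coding span in % by type, with bars for medians. Filled circles are the 3 H1 genes with the coding sequence in a peak, diamonds are members with a peak within 2 kb only, and open circles on the right are members without a peak within 2 kb. H1 genes lie above all core genes in purine content.

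Members with highly similar coding sequences could lie at different distances from a peak. No coding base of these core genes lay in a peak, so the peaks lay in other sequence than that aligned. Hist1h2ac and Hist1h2ag, both H2A genes, had 99.0% identical coding sequences with 4 differences, and the first was 1.78 kb and the second 529 kb from a peak. Hist1h2bc and Hist1h2bj, both H2B genes, were 98.9% identical with 4 differences, and the first had a peak within its limits while the second was 529 kb from one. In Hist2, the coding sequence annotated for Hist2h3c1 is 135 bases longer than that of Hist2h3b, and the shared part differed at 1 base. By its gene model, Hist2h3c1 was 0.207 kb from a peak, but its coding sequence was 1.40 kb away. Hist2h3b was 23.3 kb from a peak.

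The 3′ stem-loop is shown because it marks the mRNA end of these genes. A pattern of 16 bases, fixed at GG at the start, CC at the end and CTT and AG in the middle with a T between them, was searched on the coding strand up to 200 bases past the stop codon and was found in 60 of 67 members (89.6%), compared to 0.300% of all protein-coding genes. The capitals mark the whole stem-loop, and each line gives a form with the members that carry it.
36 members, of types H1, H2A, H2B and H3: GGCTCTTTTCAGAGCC
9 members, of types H1, H2A, H2B and H3: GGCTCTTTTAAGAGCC
8 members, all H4: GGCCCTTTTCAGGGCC

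The other 7 stem-loops fell into 5 further forms, which makes 8 distinct forms. All 9 members with a peak within 2 kb carried the first form, as did 27 without one. The second form was found in Hist1h1t and in 8 core genes, and none of its 9 carriers had a peak. The first form was the most common, and only 13.4% of all members had a peak within 2 kb. These counts are therefore too small to tie a form to peaks. The stem-loop lay inside a peak in Hist1h1e and Hist1h1c. In Hist1h1d, it lay 0.0270 kb past the end of the peak. Thus, 2 of the 3 H1 peaks reached over the stem-loop and the third ended just before it. No stem-loop was found for Hist1h2al, Hist1h2an, Hist1h2bp, Hist1h2bq, Hist1h2br, Hist2h2bb and Hist2h2be, which in part have annotated 2-exon coding sequences.

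The DNA had been cut with 5 restriction enzymes (EcoRI, HindIII, BsrGI, SspI and XbaI) before the immunoprecipitation, and fragments were predicted from the mm9 sequence. Of 208 predicted fragments that held part of a member, 8 also held part of a peak. The Hist1h1e peak covered the whole of a fragment of 1.20 kb, and the Hist1h1c peak covered 97.4% of a fragment of 1.30 kb. At Hist1h1d, a fragment of 0.621 kb was covered whole. The fragment of 3.30 kb with Hist2h2aa1 and Hist2h3c1 was covered to 66.6%, so that the sequence of both start sites and the peak were on 1 piece of DNA. The median fragment length was 0.815 kb with a peak and 0.540 kb without. Many of the short fragments without a peak came from the 37.4 kb gene model of Hist1h2be. A longer fragment also offers more bases for a peak to overlap, so these medians are a description alone.

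The fragments did not separate the H1 genes by size. The longest fragment over the coding sequence measured 1.30 kb in Hist1h1c, 1.20 kb in Hist1h1e and 0.621 kb in Hist1h1d, and 2.90 kb in Hist1h1a, 1.30 kb in Hist1h1t and 0.428 kb in Hist1h1b. Among core genes, sites of these enzymes cut the coding sequence of 16 of 18 H2B genes, 1 of 19 H2A genes and none of the 11 H3 and 13 H4 genes. The median of the longest fragment was 1.08 kb in H2A, 1.18 kb in H2B, 1.45 kb in H3, 1.57 kb in H4 and 1.25 kb in H1. The part of the digestion in the peaks was not tested.

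Genes that supply or process histone mRNA were not part of the clusters and were set beside them from a list. Of 19 such genes, 11 (57.9%) had a peak within 2 kb and 7 (36.8%) had the TSS inside a peak. The latter were Npat, the coactivator of histone gene transcription at the histone locus body, Slbp, which encodes the stem-loop binding protein, Lsm11 of the U7 snRNP, the cleavage factors Cpsf2 and Cpsf3, and the cap-linked genes Ncbp1 and Srrt. The peak at Npat measured 1.55 kb, that at Lsm11 1.54 kb and the wider of the peaks at Slbp 3.60 kb. No peak was found within 2 kb of Casp8ap2, Lsm10, Zfp473, Sympk, Cstf2, Eri1, Ccne1 and Ccne2. All 19 genes exceeded 1 kb, and the shares among all protein-coding genes were 43.1% within 2 kb and 14.9% at the TSS.

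Among 13 genes of replication-independent histones, which are expressed throughout the cell cycle or in special tissues, 9 (69.2%) had a peak within 2 kb and 5 (38.5%) had the TSS in a peak, with 43.1% and 14.9% among all protein-coding genes. H1fx, H2afj and H2afx lay wholly inside peaks of 2.71, 4.27 and 9.79 kb. H3f3a and H3f3b, which encode the replacement histone H3.3, had 61.5% and 40.0% of their bases in peaks. H1foo and H1fnt, the germ cell H1 genes, together with H2afb1 and H2afv had no peak within 2 kb. Of the neural stem cell markers, 6 of 8 genes (Sox2, Nes, Vim, Slc1a3, Hes5 and Msi1) had a peak within 2 kb, and Fabp7 and Pax6 had none, with 43.1% among all protein-coding genes. A peak list does not measure expression and so gives no direct check of the labelled cell type, and the transcription of the members in these cells was not analysed here.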

How the data were processed

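DRIP-seq was performed by the authors on NSPCs of 3 biological replicates, with 3 DRIP reactions pooled for each library. Reads were trimmed (Trim Galore 0.6.6, per the submitters' processing notes), aligned to NCBI37/mm9 and freed of duplicates, before a Hidden Markov Model called the peaks. How replicates were combined is not given in the sources used here. The deposited list holds peak positions in bp and no other unit. Peaks called so follow the depth and mappability of each locus, which are unknown here.

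Start positions were converted to count from 1. The mm9 sequence and the GENCODE M1 annotation served as reference. Gene limits are the outermost annotated positions, and the longest annotated coding sequence was used. Coding identity came from global alignment, with gaps counted as differences. RefSeq names (GRCm38.p6) matched 66 of 67 members. Members, lists and alternatives were chosen with earlier results of these data known, and the 1 kb background and the coding-base count were added after seeing the data. All members were accounted for; full values were given for those inside, nearest to and farthest from peaks, those at the 2 kb limit, testis genes and near-identical pairs. Overlap, distance and word-count steps were tested on simulated data. Python 3.11.15, pandas 2.3.3, pysam 0.24.0, numba 0.67.0 and Biopython 1.88 were used. The coding window of Hist1h1e is not reported here.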

Additional observations from a re-analysis of the deposited data

How the results depend on the processing

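Over 32 results, 104 alternatives were computed, of which 85 left the value within 1.5 times or 1 SD, 19 moved it and 0 reversed it. A reversal could be called only for the GC skew medians, so the 0 says nothing about the other results. Without a flank, 4 members had a peak, 0 in Hist2 and Hist3, with 0 H2A, 1 H2B and 0 H3 genes. When at least 50% of the gene had to lie in peaks, 2 members had one, and within the gene limits also 2. With peaks of at least 1 kb only, 2 members had a peak inside the gene, 3 Hist1 members and 1 H2B gene had one within 2 kb, 1.14% of the third Hist1 run was covered, and 4 fragments held a member and a peak. There, 6 members had a peak within 2 kb, since Hist1h1d (873 bp peak) and Hist1h2ac with Hist1h2bc (571 bp peak) dropped out, and 2 of 6 H1 genes had one. With the limits of the coding sequence, 3 members lay wholly inside a peak, 0 Hist3 members and 1 H2B gene had one within 2 kb. With a flank of 5 kb, 1 Hist4 and 2 H4 genes had one. Over the gene limits alone, members without a peak had a median GC content of 59.5%, against 45.1% with flanks. The latter was above the 43.7% of members with a peak within 2 kb. With peaks of at least 1 kb only, the medians with flanks were 44.8% without a peak and 45.5% with one, so this order turned. No paired analysis was possible because the list has no replicates. Depth is unknown, so a missing peak does not show a missing R-loop.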
